A study of Mus musculus with 26 samples.

Results

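The 10 genes described here are targets of the transcription factor p53: Cdkn1a, Mdm2, Ccng1, Trp53inp1, Bbc3, Bax, Pmaip1, Sesn1, Phlda3 and Btg2. They were chosen by symbol, with earlier results of these data known. All 10 were found among the 20430 genes of the RNA tables and among the 19941 genes of the ribosome footprint tables. They were measured in the established mouse cell line NIH3T3, which the labels describe as embryonic fibroblasts. Polyadenylated RNA was sequenced in 16 libraries, and ribosome footprints, the mRNA fragments covered by ribosomes, in 10 libraries, with 2 replicates per group. The title of the study names its question, the entry of transcription into neighbouring genes under stress. In one experiment cells were left as a control or exposed to H2O2, an oxidant, for 2 h or 7 h, or to KCl, an osmotic stress, for 2 h or 7 h, and both RNA and footprints were analysed. In the other experiment RNA was analysed in a separate control and in cells kept at 44 °C for 2 h or at 42 °C for 8 h. The sources used here give no concentrations of the agents. No group carries a labelled genetic change. The labels do not say that replicates came from separate cultures, so p-values measure only the spread between these libraries, which may be technical.

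The p53 protein is held at a low level by Mdm2, a ubiquitin ligase that marks it for degradation and is itself a p53 target, which closes a feedback loop. DNA damage and other stresses stabilise p53, which then binds pairs of half-sites in DNA and raises transcription of genes that stop the cell cycle, start apoptosis or limit oxidative damage. In fibroblasts this programme is known for cell cycle arrest through Cdkn1a, which encodes the kinase inhibitor p21.

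Promoter sequences of the members are shown first, since p53 is known to bind pairs of half-sites in DNA. Whether p53 uses the sites shown was not tested, and some of them are lone half-sites. A RefSeq table of promoters (build GRCm38.p6, from 250 bases before to 50 bases after each start) held 12 windows for 8 of the members, and Pmaip1 and Trp53inp1 had no entry. The p53 half-site is 10 bases long, it reads the same way on both strands, and 2 half-sites make a full site. Its core was taken as CNNG with only the C and G fixed. An allowed mismatch could thus fall on the bases between them, which are A or T in an exact site. A mismatch of the Ccng1 full site below lies there (CCTG). An exact half-site was found in 5 of the 12 windows, 1 each of Cdkn1a, Mdm2, Ccng1, Bax and Sesn1, and in 8.36% of all 32851 windows of the same length. With 1 mismatch allowed outside the core it was found in 8 of the 12 windows and in 50.9% of all windows. A full site of 2 adjoining half-sites, with at most 1 mismatch outside the core in each, was found in 2 of the 12 windows, those of Cdkn1a and Ccng1, and in 0.204% of all windows. This form of the full site was added after the sequences had been seen. With exact half-sites up to 13 bases apart, 1 of the 12 windows, that of Cdkn1a, held a full site, as did 0.0731% of all windows. The stretches below run 5′ to 3′ on the strand of the gene, with the site in capitals.
Cdkn1a (chr17:29090729-29090978, plus strand, full site at bases -51 to -32 from the start): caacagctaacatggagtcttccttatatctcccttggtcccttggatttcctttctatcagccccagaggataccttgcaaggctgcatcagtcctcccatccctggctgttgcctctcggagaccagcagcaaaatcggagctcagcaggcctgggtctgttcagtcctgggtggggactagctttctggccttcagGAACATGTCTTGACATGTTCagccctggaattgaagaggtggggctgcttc
Ccng1 (chr11:40755287-40755536, minus strand, full site at bases -195 to -176 from the start): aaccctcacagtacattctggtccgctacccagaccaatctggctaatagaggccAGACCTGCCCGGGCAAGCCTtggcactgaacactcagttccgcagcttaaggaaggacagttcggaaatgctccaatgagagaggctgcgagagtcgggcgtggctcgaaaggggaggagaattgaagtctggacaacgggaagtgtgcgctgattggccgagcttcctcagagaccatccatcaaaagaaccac
Mdm2 (chr10:117710910-117710969, minus strand, half-site at bases -186 to -177 from the start): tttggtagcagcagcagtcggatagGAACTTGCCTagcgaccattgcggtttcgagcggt
Bax (chr7:45467065-45467124, minus strand, half-site at bases -201 to -192 from the start): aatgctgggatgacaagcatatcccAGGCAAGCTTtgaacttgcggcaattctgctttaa
Sesn1 (chr10:41887241-41887300, plus strand, half-site at bases -173 to -164 from the start): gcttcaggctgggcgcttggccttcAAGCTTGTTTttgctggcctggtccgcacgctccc
The site in Cdkn1a belongs to the upstream of the 2 starts in the table, and lies 2841 bases before the other start. A match is a description of letters and no measurement of binding.

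RNA libraries held 24441877 to 45244430 expected counts and footprint libraries 1460751 to 5168537, so footprint values of the low members rest on few counts. Both footprint extremes belonged to the 2 h H2O2 group, with 1460751 in replicate 1 and 5168537 in replicate 2. The other footprint libraries held 2884344 to 3925402. All 10 members passed the filter on low counts in every fit. Of 10 fibroblast markers 8 were above 10 TPM (a level corrected for transcript length and scaled to the library) in every RNA library. The summed level of these 10 was 10336 to 12718 TPM in controls and 4751 to 11571 TPM under stress. Of 15 markers of epithelial, blood, endothelial and muscle cells 7 were below 1 TPM in every library and Cd3e was at 0. The highest of the 15 were Krt18, at 6.46 to 17.19 TPM, and Cd68, at 5.32 to 44.68 TPM. The summed level of these 15 was 19.4 to 26.1 TPM in controls and 20.6 to 58.7 TPM under stress. The part of either sum in the results was not tested. All values are relative to the library, so a change in the RNA per cell cannot be told apart from a change in a gene's share.

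Trp53, which encodes p53, was well expressed throughout. In the control of H2O2 and KCl its RNA was at 253 and 269 TPM, and after 7 h of H2O2 at 399 and 377 TPM. RNA of Trp53 rose by 0.66 on the log2 scale (SE 0.07) after 7 h of H2O2, did not pass the test at 2 h of H2O2 (-0.10, SE 0.07), fell by 0.41 (SE 0.05) at 44 °C and rose by 0.32 (SE 0.05) at 42 °C. A log2 fold change of 1 is a doubling. After 7 h of H2O2 the change of Trp53 was smaller than that of every member but Sesn1.

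In control cells the members lay far apart in level. In the control of H2O2 and KCl the order of mean RNA levels was Bax (246 TPM), Phlda3 (57.9), Mdm2 (55.0), Ccng1 (43.4), Cdkn1a (38.5), Sesn1 (22.9), Btg2 (11.3), Bbc3 (11.3), Pmaip1 (11.2) and Trp53inp1 (4.68). Replicates of Btg2, Bbc3 and Pmaip1 overlapped, while all other neighbours in this order were separate. In the heat control Cdkn1a stood at 71.4 and 72.5 TPM and Trp53inp1 at 10.95 and 10.19 TPM, both above the values of the other control, which belongs to a separate experiment. The summed RNA of the members was 490 and 514 TPM in the control of H2O2 and KCl, and 4954 and 5246 TPM after 7 h of H2O2, or 0.495% and 0.525% of all RNA. In every other stress library the sum lay between 466 and 796 TPM. After 7 h of H2O2 Cdkn1a ranked 91 and 90, and Mdm2 105 and 87, among the 20430 genes.

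**Figure D1:**
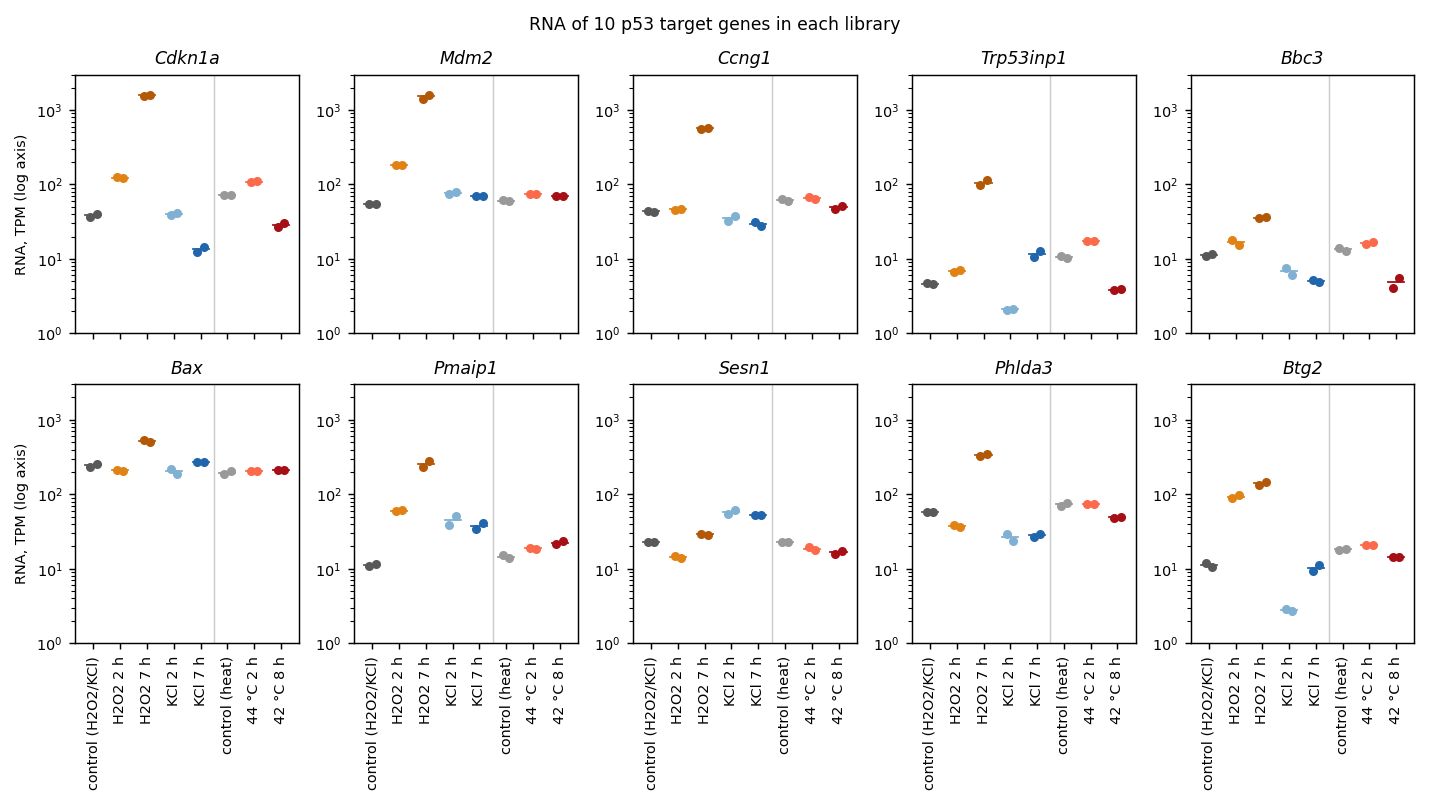
RNA level (TPM, log axis) of each member in the 16 RNA libraries. Points are libraries, short lines are means of 2 libraries, and the grey line parts the H2O2/KCl experiment from the heat experiment. Cdkn1a reached 1568 and 1604 TPM after 7 h of H2O2, while Sesn1 was highest after 2 h of KCl.

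After 7 h of H2O2 the RNA of all 10 members was higher than in the control (10 of 10, where 39.4% of the 13256 genes tested were called higher and 31.1% lower). The median log2 fold change of the members was 3.74, beside 0.08 for all genes tested. Every member's H2O2 libraries lay above both control libraries. Cdkn1a and Mdm2, the brakes on the cell cycle and on p53 itself, changed the most.

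Cdkn1a RNA stood at 37.0 and 40.0 TPM in the control, at 125 and 124 TPM after 2 h and at 1568 and 1604 TPM after 7 h of H2O2. This was a log2 fold change of 1.69 (SE 0.07) at 2 h and 5.45 (SE 0.08) at 7 h, a 43.6-fold rise with an adjusted p of 2.9e-15. Mdm2 RNA went from 55.3 and 54.6 TPM to 184 and 183 TPM, and then to 1426 and 1618 TPM. The rise of the feedback gene was 1.76 (SE 0.07) at 2 h and 4.88 (SE 0.08) at 7 h. Ccng1 encodes cyclin G1, which acts with a phosphatase on Mdm2. Its RNA was at 43.6 and 43.3 TPM in the control, at 45.1 and 47.4 TPM at 2 h and at 561 and 570 TPM at 7 h. The 2 h difference of 0.09 (SE 0.07) did not pass the test, whereas at 7 h Ccng1 had risen by 3.77 (SE 0.07). Btg2, an antiproliferative gene that is also an immediate early response gene, had the widest change at 2 h. Its RNA was at 11.9 and 10.7 TPM in the control, at 89.3 and 97.3 TPM at 2 h and at 134 and 146 TPM at 7 h, with log2 fold changes of 3.04 (SE 0.09) and 3.71 (SE 0.09).

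The genes of apoptosis divided by time. Pmaip1 encodes Noxa, a BH3-only protein that opens the way for Bax at mitochondria. Its RNA was at 10.9 and 11.4 TPM in the control, at 59.4 and 61.8 TPM at 2 h and at 235 and 276 TPM at 7 h, which gave 2.44 (SE 0.12) and 4.60 (SE 0.12). Bbc3 encodes Puma, another BH3-only protein, and rose less, by 0.67 (SE 0.10) and 1.95 (SE 0.10), from 10.8 and 11.8 TPM to 35.6 and 36.5 TPM at 7 h. Bax, the pore-forming effector of this pathway, was the member with the highest RNA in the control, at 235 and 257 TPM. It was at 215 and 208 TPM at 2 h and at 540 and 502 TPM at 7 h. Bax fell by 0.22 (SE 0.07, adjusted p 0.023) at 2 h and rose by 1.16 (SE 0.07) at 7 h. The fall at 2 h did not pass without control replicate 2 (-0.16) or without H2O2 2 h replicate 2 (-0.19).

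Trp53inp1, a stress protein that promotes the apoptotic activity of p53, was the lowest member in the control at 4.72 and 4.63 TPM. It stood at 6.69 and 7.19 TPM at 2 h and at 97.2 and 113 TPM at 7 h, and its log2 fold changes were 0.57 (SE 0.10) and 4.57 (SE 0.09). Phlda3, an inhibitor of the survival kinase Akt, went the other way first. Its RNA was at 57.4 and 58.3 TPM in the control, at 38.7 and 36.2 TPM at 2 h and at 328 and 351 TPM at 7 h, so that it fell by 0.63 (SE 0.09) and then lay 2.63 (SE 0.08) above the control. Sesn1, a sestrin that restrains mTORC1 signalling and limits oxidative damage, was the member that changed least at 7 h. It was at 22.9 and 22.8 TPM in the control, at 15.01 and 14.04 TPM at 2 h and at 29.1 and 28.8 TPM at 7 h. Sesn1 fell by 0.65 (SE 0.07) at 2 h and was 0.26 (SE 0.07, adjusted p 0.0044) above the control at 7 h, a call that did not pass without H2O2 7 h replicate 1 (0.17, adjusted p 0.12).

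At 2 h of H2O2, then, 6 members were called higher (Btg2, Pmaip1, Mdm2, Cdkn1a, Bbc3 and Trp53inp1) and 3 lower (Sesn1, Phlda3 and Bax), beside 27.3% of all genes called higher and 26.5% lower. The share called in either direction was 53.9% of all genes, so passing the test is common in these libraries and the sizes say more than the counts. The direct comparison of 7 h with 2 h of H2O2 called all 10 members higher, beside 37.3% of all genes. Among them Trp53inp1 had the widest difference at 4.004 (SE 0.09) and Btg2 the narrowest at 0.66 (SE 0.08).

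KCl moved the members in both directions, as it did genes at large. At 2 h of KCl 3 members were called higher and 5 lower (27.2% and 27% of all genes), and at 7 h 5 were higher and 4 lower (37.2% and 31.6%). The members' median log2 fold change was -0.20 at 2 h and 0.10 at 7 h, beside 0.00 and 0.04 for all genes. Pmaip1 and Sesn1 were the members with the highest log2 fold changes at 2 h.

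Sesn1 RNA stood at 55.0 and 60.8 TPM after 2 h of KCl and at 53.1 and 52.6 TPM after 7 h, above the 22.9 and 22.8 TPM of the control and also above the 7 h H2O2 libraries. It rose by 1.47 (SE 0.07) at 2 h and 1.34 (SE 0.07) at 7 h. Pmaip1 rose by 2.10 (SE 0.12) and 1.87 (SE 0.12), to 39.1 and 50.5 TPM and to 34.4 and 41.7 TPM. Mdm2 rose only slightly, by 0.55 (SE 0.07) and 0.43 (SE 0.07), with 69.0 to 78.1 TPM in the 4 KCl libraries.

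Cdkn1a did not share that rise. It was at 38.4 and 41.3 TPM after 2 h of KCl, which did not pass the test, and at 12.3 and 14.4 TPM after 7 h, where it fell by 1.42 (SE 0.08). Phlda3 fell by 1.04 (SE 0.09) at 2 h and 0.94 (SE 0.09) at 7 h, and Bbc3 by 0.59 (SE 0.12) and 0.98 (SE 0.12). Ccng1 fell by 0.22 (SE 0.07, adjusted p 0.013) at 2 h and by 0.50 (SE 0.07) at 7 h. The small fall of Ccng1 at 2 h did not pass without control replicate 1 (-0.21) or without KCl 2 h replicate 1 (-0.15). At 7 h of KCl the genes of apoptosis were thus divided, with Bbc3 and Phlda3 below the control and Pmaip1, Trp53inp1 and Bax above it.

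Trp53inp1 and Btg2 turned between the 2 times. Trp53inp1 was at 2.09 and 2.14 TPM after 2 h of KCl and at 10.6 and 12.7 TPM after 7 h, so that it fell by 1.06 (SE 0.12) and then rose by 1.41 (SE 0.10) against the control. Btg2 was at 2.91 and 2.70 TPM at 2 h, a fall of 1.92 (SE 0.12), and was back at 9.27 and 11.2 TPM at 7 h, where its libraries overlapped those of the control. Bax was called 0.26 (SE 0.07) higher at 7 h, which did not pass without control replicate 1 (0.20) or on log2(TPM + 1) values (0.15). Between 2 h and 7 h of KCl 3 members were called higher and 3 lower, beside 35.1% and 33.7% of all genes.

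**Figure D2:**
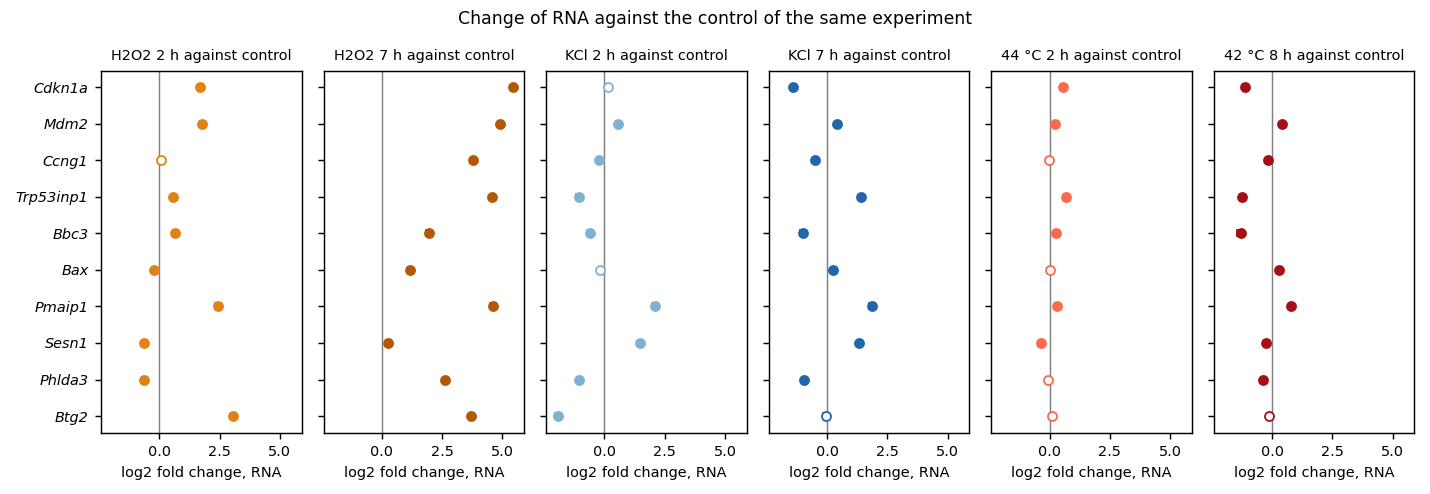
Log2 fold change of RNA (horizontal axis) of each member against the control of its own experiment, with bars of 1 SE from the edgeR fit, mostly narrower than the points. Filled points passed the test, open points did not. All 10 members lie above 0 after 7 h of H2O2, while each of the other panels holds members on both sides of 0.

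Set directly against each other at 2 h, H2O2 was higher than KCl for 8 members and lower for Sesn1 (27% and 24.2% of all genes). The difference was 4.96 (SE 0.11) for Btg2, 1.63 (SE 0.12) for Trp53inp1, 1.54 (SE 0.07) for Cdkn1a, 1.25 (SE 0.12) for Bbc3 and 1.199 (SE 0.07) for Mdm2. It was 0.41 (SE 0.09) for Phlda3, 0.31 (SE 0.07) for Ccng1, 0.34 (SE 0.11) for Pmaip1 and -2.12 (SE 0.07) for Sesn1. For Pmaip1 the call did not hold without H2O2 2 h replicate 2 (0.32) or without KCl 2 h replicate 1 (0.17). At 7 h H2O2 was higher for 9 members, again with Sesn1 lower at -1.08 (SE 0.07), beside 41% and 37.4% of all genes. Cdkn1a then differed by 6.87 (SE 0.09), Mdm2 by 4.45 (SE 0.08), Ccng1 by 4.27 (SE 0.07), Btg2 by 3.76 (SE 0.09) and Phlda3 by 3.58 (SE 0.09). Trp53inp1 differed by 3.16 (SE 0.09), Bbc3 by 2.92 (SE 0.11), Pmaip1 by 2.73 (SE 0.11) and Bax by 0.90 (SE 0.07). Sesn1 was the one member with more RNA under KCl than under H2O2 at both times.

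Heat changed most members far less than 7 h of H2O2 did, but not Sesn1. At 44 °C for 2 h 5 members were called higher and 1 lower (35.4% and 35.7% of all genes), and at 42 °C for 8 h 3 were higher and 6 lower (31.7% and 31.9%). No member moved by as much as 1 on the log2 scale at 44 °C. The arrest gene Cdkn1a went in opposite directions in the 2 regimes.

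Cdkn1a RNA was at 71.4 and 72.5 TPM in the heat control, at 107 and 113 TPM at 44 °C and at 27.2 and 30.8 TPM at 42 °C. It rose by 0.54 (SE 0.05) and fell by 1.13 (SE 0.06). Trp53inp1 did likewise, from 10.95 and 10.19 TPM to 17.7 and 17.6 TPM (0.67, SE 0.06) and to 3.77 and 3.97 TPM (-1.26, SE 0.07). Bbc3 was 0.27 (SE 0.11, adjusted p 0.035) above the control at 44 °C and fell by 1.31 (SE 0.13) at 42 °C, where it stood at 4.13 and 5.63 TPM. The 44 °C call of Bbc3 did not pass without heat control replicate 2 (0.18), without 44 °C replicate 2 (0.21) or with DESeq2 (adjusted p 0.11). Mdm2 and Pmaip1 were above the control in both regimes, Mdm2 by 0.23 (SE 0.04) and 0.40 (SE 0.04) and Pmaip1 by 0.29 (SE 0.07) and 0.80 (SE 0.07). Sesn1 fell in both, by 0.37 (SE 0.06) and 0.25 (SE 0.06).

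Of the remaining members at 42 °C, Phlda3 fell by 0.39 (SE 0.06), Ccng1 fell by 0.15 (SE 0.05) and Bax was 0.30 (SE 0.05) higher. The fall of Ccng1 did not pass without heat control replicate 1 or without 42 °C replicate 1 (-0.10 in each case). On log2(TPM + 1) values the median of all genes moved to -0.16 at 42 °C, and Bax, at 0.11, no longer passed. In the direct comparison of 42 °C with 44 °C 3 members were higher and 6 lower (37.9% and 37.2% of all genes), among them Trp53inp1 at -1.94 (SE 0.07), Cdkn1a at -1.67 (SE 0.06) and Bbc3 at -1.58 (SE 0.13). Pmaip1 was 0.51 (SE 0.07) higher at 42 °C. Mdm2 at 0.17 (SE 0.04) and Bax at 0.29 (SE 0.05) were also called higher, but on log2(TPM + 1) values, where the median of all genes was -0.20, Mdm2 was at -0.07 and Bax at 0.04 and neither passed.

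The genes most like Cdkn1a in pattern over the 10 RNA libraries of the H2O2/KCl experiment, by Pearson's r of log2 CPM (counts scaled to library size) among 9400 genes, were Fas (0.996), Evpl (0.996), Slc1a5 (0.996), Gars (0.995) and Rars (0.995). Those most like Mdm2 were Nop14 (0.993), Jag2 (0.993), Psph (0.993), Tnfaip2 (0.992) and Fam53b (0.991). Replicates share a condition in these 10 libraries, so the r values describe 5 conditions. Between Cdkn1a and Mdm2 themselves r was 0.960, and 0.748 over the 8 libraries without 7 h of H2O2. Between Cdkn1a and Sesn1 it was -0.440, and -0.758 without those libraries. Without them r with Cdkn1a turned sign for Bax, from 0.726 to -0.860, and for Trp53inp1, from 0.768 to -0.324.

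Ribosome footprints of all 10 members were higher after 7 h of H2O2 as well (10 of 10, where 17.2% of the 10545 genes tested were called higher). The median of the members was 3.87, beside 0.01 for all genes. Cdkn1a footprints were at 61.0 and 63.4 TPM in the control and at 2298 and 3032 TPM after 7 h, where they ranked 33 and 16 among all genes. Mdm2 footprints went from 34.9 and 32.8 TPM to 1592 and 2299 TPM. The 2 replicates at 7 h lay further apart than in RNA, but both were far above the control.

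The log2 fold changes of footprints at 7 h of H2O2 were 6.26 (SE 0.58) for Trp53inp1, 5.74 (SE 0.35) for Mdm2, 5.31 (SE 0.28) for Cdkn1a, 4.20 (SE 0.30) for Pmaip1, 3.91 (SE 0.29) for Ccng1, 3.83 (SE 0.27) for Phlda3 and 3.02 (SE 0.35) for Btg2. Trp53inp1 rested on 7 and 5 control footprints and on 369 and 480 at 7 h. The smaller changes were 2.08 (SE 0.53) for Bbc3, 1.52 (SE 0.37) for Sesn1 and 1.05 (SE 0.32) for Bax. These last 3 calls depended on single libraries. Bbc3 did not pass without control replicate 1 (1.26), without 7 h replicate 1 (2.07) or without 7 h replicate 2 (1.99). Sesn1 did not pass without control replicate 1 (1.12) or 7 h replicate 2 (1.42), nor Bax without control replicate 1 (0.60) or 7 h replicate 2 (0.65). Against 2 h of H2O2, 7 members had more footprints at 7 h, beside 18.7% of all genes. Against 7 h of KCl, 9 members had more footprints at 7 h of H2O2, beside 23.5% of all genes, led by Cdkn1a at 6.70 (SE 0.31) and Mdm2 at 5.89 (SE 0.35).

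At 2 h of H2O2 footprints of 4 members were called higher, beside 1.14% of all genes. These were Btg2 at 2.32 (SE 0.35), Mdm2 at 1.88 (SE 0.30), Pmaip1 at 1.65 (SE 0.32) and Cdkn1a at 1.62 (SE 0.25), the members with the widest RNA changes at that time. Cdkn1a footprints were at 165 and 198 TPM, Mdm2 at 77.1 and 151 TPM, Pmaip1 at 72.2 and 74.1 TPM and Btg2 at 73.7 and 158 TPM, all above both control libraries. The calls were fragile. Of the 4, 1 passed without control replicate 1, 0 without control replicate 2 and 2 without H2O2 2 h replicate 2, although the log2 fold changes of those lost still lay between 1.41 and 1.99. At 2 h of KCl Pmaip1 alone was called higher, at 1.78 (SE 0.32), beside 1.79% of all genes, and without control replicate 1 it was at 1.59 and did not pass. At 7 h of KCl Sesn1 was higher at 1.76 (SE 0.37), beside 10.5% of all genes, and Btg2 and Cdkn1a were lower at -2.02 (SE 0.49) and -1.38 (SE 0.29), beside 9.82%. Without KCl 7 h replicate 2 none of these 3 passed, with Sesn1 at 1.25, Btg2 at -2.46 and Cdkn1a at -1.16. Btg2 also did not pass without control replicate 1 (-1.57) or without KCl 7 h replicate 1 (-1.74), and it rested on 5 and 11 footprints at 7 h of KCl.

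**Figure D3:**
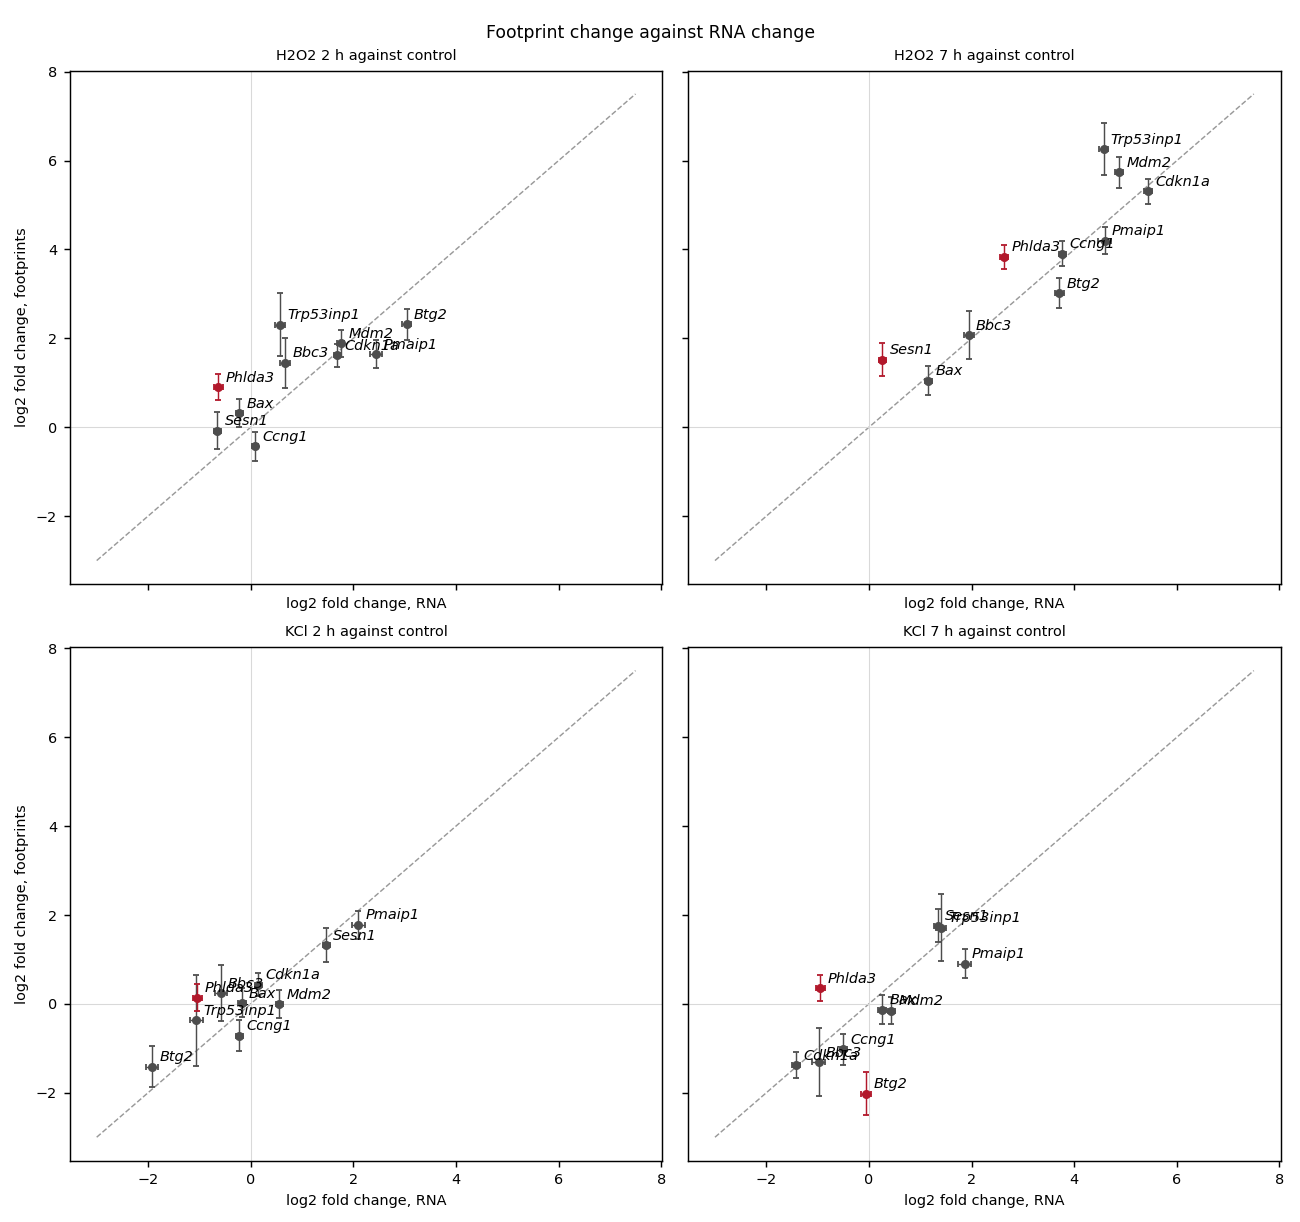
Log2 fold change of footprints (vertical axis) against that of RNA (horizontal axis) for each member in 4 comparisons with the control, with bars of 1 SE and a dashed line where both are equal. Red points are members whose ratio of footprints to RNA was called different from the control. Phlda3 lies above the line in all 4 panels, and Btg2 below it at 7 h of KCl.

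The number of ribosomes per RNA, or translational efficiency, was compared through the ratio of footprints to RNA. In the control Cdkn1a had 1.61 footprint TPM per RNA TPM, above 91.8% of the 10939 genes compared, and Pmaip1 and Btg2 had 2.19 and 2.24. Sesn1 (0.324), Ccng1 (0.361) and Bax (0.462) lay below the median of all genes, 0.602. After 7 h of H2O2 the ratio of Cdkn1a was 1.68, so that its footprints had risen with its RNA. Mdm2 went from 0.617 to 1.28 and Trp53inp1 from 0.529 to 2.00, but their differences, 0.88 (SE 0.32, adjusted p 0.098) and 1.73 (SE 0.59, adjusted p 0.076) on the log2 scale, did not pass the test in edgeR. DESeq2 called the difference of Trp53inp1 at the same size (1.73, adjusted p 0.0082).

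Phlda3 was the member whose ratio was called higher than the control in all 4 stress groups, which share their control libraries. The ratio was 0.530 in the control, 1.42 in the 2 h and 1.39 in the 7 h H2O2 group, 1.23 in the 2 h and 1.36 in the 7 h KCl group. Its control value rested on 33 and 40 footprints. The log2 differences were 1.52 (SE 0.28, adjusted p 0.0028) and 1.23 (SE 0.25, adjusted p 0.0054) for H2O2, and 1.17 (SE 0.32, adjusted p 0.021) and 1.35 (SE 0.30, adjusted p 0.015) for KCl. In the 2 h groups of both agents Phlda3 was the one member called higher (3.89% and 3.65% of all genes), and the RNA of Phlda3 had fallen there while its footprint change did not pass the test. The model gives footprints and RNA of a gene 1 spread, and with separate weights for each kind of library (limma voom) the KCl calls of Phlda3 did not pass (adjusted p 0.14 and 0.11). Leaving out footprint control replicate 1 also ended both KCl calls (0.95 and 1.13), as did leaving out footprint replicate 2 of the KCl group itself (0.85 at 2 h, 1.13 at 7 h), and RNA replicate 2 at 2 h of KCl (1.02). The 2 h H2O2 call did not pass without footprint replicate 2 of that group (1.27), and the 7 h H2O2 call passed without each library in turn.

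Other calls of the ratio were fewer and weaker. At 7 h of H2O2 2 members were higher, Phlda3 and Sesn1 (1.29, SE 0.35, adjusted p 0.028), beside 4.97% of all genes. At 7 h of KCl Phlda3 was higher and Btg2 lower (-1.95, SE 0.54, adjusted p 0.044), beside 1.69% and 3.71% of all genes. H2O2 against KCl at 7 h gave higher ratios for Mdm2 (1.43, SE 0.33, adjusted p 0.010) and Trp53inp1 (1.41, SE 0.45, adjusted p 0.048), beside 7.81% of all genes. The calls of Sesn1, Btg2 and Trp53inp1 each did not pass without 7 of the 8 libraries left out in turn, with values of 0.91 to 1.31, -2.41 to -1.50 and 0.58 to 1.54 there. Mdm2 did not pass without footprint replicate 2 of H2O2 7 h (1.06) or of KCl 7 h (1.25). Between 7 h and 2 h of H2O2 edgeR called 0 members, beside 5.67% of all genes called higher and 2.04% lower, although 3 had an unadjusted p under 0.05 and DESeq2 called 1.

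The study's own subject, transcription past gene ends, touched the members in 9 of the 6399 deposited pairs of neighbouring genes, and Pmaip1, Ccng1 and Phlda3 were in none of them. A DoG (downstream-of-gene transcript) is RNA that continues past the end of a gene, and read-in is its entry into the next gene. The authors' DoG call was positive for Bax towards Ftl1, which encodes the ferritin light chain, in all 16 RNA libraries. Slc35e3 towards Mdm2 and Cd164 towards Sesn1 were called in 11 of 16 libraries each, in 3 of 4 control and 8 of 12 stress libraries. Trp53inp1 towards Ccne2 was called in 1 of 4 control and 5 of 12 stress libraries. Dhdh towards Bax was called in 4 of 16 libraries, Btg2 towards Prelp in 3 and Mdm2 towards Cpsf6 in 2. Srsf3 towards Cdkn1a and Bbc3 towards Zc3h4 were called in 1 library each. The mean share of all pairs with a DoG call was 26.0% per control library and 29.4% per stress library.

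Read-in was called for 1 of the 9 pairs, from Bax into Ftl1, in 12 of 12 stress libraries and in 1 of 4 control libraries. The mean share of all pairs with a read-in call was 0.641% per control library and 1.63% per stress library. The authors' deposited read-in estimate of this pair, for which the sources used here give no formula, was 0.000475 to 0.000622 in the 4 controls. In KCl it was 0.0160 and 0.0178 at 2 h, then 0.00305 and 0.00489 at 7 h. Cells given H2O2 for 2 h had 0.00661 and 0.00688, and heated cells had 0.00314 and 0.00392 at 44 °C and 0.00439 and 0.00640 at 42 °C. At 7 h of H2O2, where Bax RNA was highest, it was 0.000774 and 0.00100. All 12 stress values lay above all 4 control values. No member was called as a receiver of read-in.

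**Figure D4:**
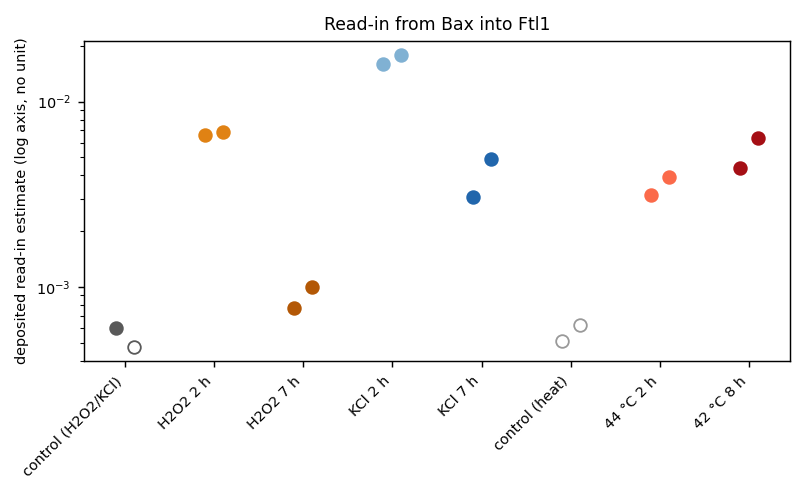
The authors' read-in estimate for Bax into Ftl1 (log axis, no unit) in each RNA library, filled where read-in was called and open where it was not. Stress libraries lie between 0.000774 and 0.0178, and controls between 0.000475 and 0.000622.

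Of 30 further p53 targets 29 were tested, all but Casp1, and after 7 h of H2O2 28 of them were higher in RNA and 0 lower (39.4% and 31.1% of all genes), with a median log2 fold change of 3.02. The exception was Ddb2 at -0.22 (SE 0.13). The lists here and below, like the members, were chosen with earlier results of these data known. Their counts are thus no independent comparison with all genes. Gdf15, a secreted stress cytokine, had the widest change at 6.10 (SE 0.25), from 0.23 TPM in both control libraries to 14.81 and 15.97 TPM. It was followed by Icam1, an adhesion molecule, at 5.22 (SE 0.12), Dcxr, a xylulose reductase, at 4.59 (SE 0.09), and Eda2r, a receptor of the tumour necrosis factor family, at 4.52 (SE 0.19). Trp53cor1, the long noncoding RNA lincRNA-p21 that lies beside Cdkn1a, rose by 4.45 (SE 0.42) but was at only 0.98 and 1.2 TPM, and Psrc1 rose by 4.01 (SE 0.10). At 2 h of H2O2 13 of the 29 were higher and 4 lower (27.3% and 26.5% of all genes). In KCl 10 were higher and 10 lower at 2 h (27.2% and 27% of all genes), and 8 higher and 13 lower at 7 h (37.2% and 31.6%). In heat 9 were higher and 7 lower at 44 °C (35.4% and 35.7%), and 9 higher and 16 lower at 42 °C (31.7% and 31.9%). The counts at 44 °C are below what all genes gave. At 2 h of KCl as many were called higher as lower, both somewhat above the share of all genes.

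Of the regulators of p53, 10 of 19 were higher and 5 lower at 7 h of H2O2, with a median of 0.27, beside 39.4% and 31.1% of all genes and a median of 0.08. These counts are not far from those of all genes, so single genes are given as a description. Zfp385a, a zinc finger protein that binds p53, rose by 2.86 (SE 0.07), from 28.0 and 30.8 TPM to 202 and 200 TPM. Negative regulators of p53 that are known as its targets were among the others, with Ppm1d, a phosphatase, at 1.58 (SE 0.07) and Mdm4, the partner of Mdm2, at 1.48 (SE 0.07). The kinase gene Chek2 rose by 1.30 (SE 0.08), Rps27l by 1.17 (SE 0.08), and Twist1 fell by 1.07 (SE 0.08). Cop1 was listed at 0 in every RNA library while its older symbol Rfwd2 held values of 20.6 to 36.2 TPM, and it was not tested under the list's symbol.

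Genes that p53 is known to lower through p21 and the DREAM repressor complex were measured as a further list of 12 cell cycle genes. At 7 h of H2O2 9 were lower and 2 higher (31.1% and 39.4% of all genes), with a median of -0.92. At 2 h 10 were lower and 0 higher (26.5% and 27.3%), with a median of -0.25. Plk1, a mitotic kinase, fell by 3.15 (SE 0.09), from 132 and 136 TPM to 15.49 and 12.97 TPM. Ccnb2 fell by 2.00 (SE 0.06), Cdc25c by 1.78 (SE 0.11), Foxm1 by 1.31 (SE 0.06), Ccnb1 by 1.22 (SE 0.07) and Bub1 by 0.93 (SE 0.07). The 2 that rose were Ccne2 at 0.61 (SE 0.12) and E2f1 at 0.73 (SE 0.08), genes of the G1/S step, named after their values were seen, as was Ddb2. At 2 h of KCl 1 was higher and 6 lower (27.2% and 27% of all genes), with a median of -0.13. At 7 h of KCl 2 of the 12 were higher and 2 lower, below the 37.2% and 31.6% of all genes. In heat 4 were higher and 6 lower at 44 °C (35.4% and 35.7% of all genes), and 7 higher and 5 lower at 42 °C (31.7% and 31.9%). Whether p21 took part in any of these changes was not tested.

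**Figure D5:**
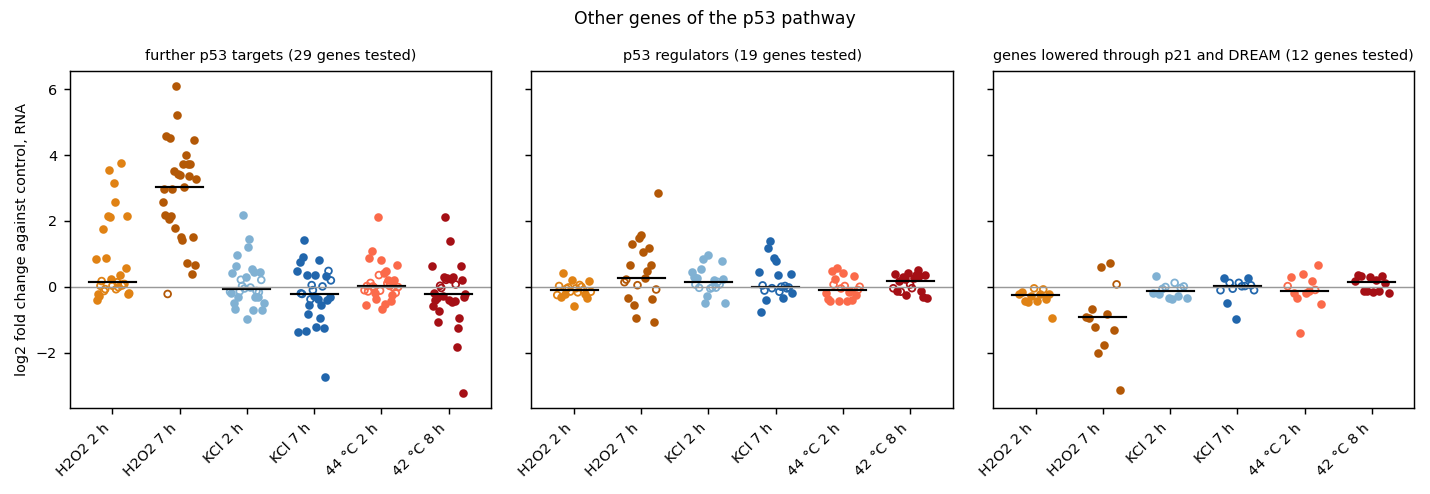
Log2 fold change of RNA against control (vertical axis) for 3 further lists of the p53 pathway in 6 stress groups, 1 point per gene, filled where the test was passed, with the list's median as a line. The median of the further targets is 3.02 after 7 h of H2O2 and between -0.22 and 0.14 in the other groups.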

How the data were processed

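RNA was measured in 16 libraries and footprints in 10, with 2 replicates in each of 13 groups. The authors deposited whole-number expected counts and TPM per gene; STAR, Bowtie, RSEM and build mm10 are named in the submitters' processing notes. The DoG and read-in calls per pair of genes and the read-in estimate, a score without a stated formula, are the authors' deposited values. Counts were tested with edgeR 4.0.16 (R 4.3.3, quasi-likelihood, TMM, filterByExpr, Benjamini-Hochberg over all genes, threshold 0.05), 1 fit per experiment and assay. Standard errors were derived from the F statistic. Translational efficiency was the interaction of assay and group over 10480 genes, while 12747 genes were tested in heat RNA. Alternatives used DESeq2 1.42.0 and limma 3.58.1, and the edgeR fits were tested on simulated data. The members and lists were chosen with earlier results of these data known. Further genes named are the 6 per list with the widest called change at 7 h of H2O2, and the 5 most like Cdkn1a or Mdm2 in pattern. The tables hold 12 other columns that no sample label matches, and these were left out.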

Additional observations from a re-analysis of the deposited data

Results flagged for a closer look

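The effect of a stress on a member differed between its durations in a direct edgeR test in 23 cases. For H2O2 all 10 members had more RNA at 7 h than at 2 h, with log2 differences of 4.004 for Trp53inp1, 3.76 for Cdkn1a, 3.68 for Ccng1, 3.26 for Phlda3, 3.12 for Mdm2, 2.16 for Pmaip1, 1.38 for Bax, 1.28 for Bbc3, 0.91 for Sesn1 and 0.66 for Btg2. Of all genes 37.3% were called higher in this comparison. Every 7 h library lay above both 2 h libraries for each member. Phlda3, Sesn1 and Bax were below the control at 2 h and above it at 7 h.

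For KCl 6 members differed between the times, 3 higher and 3 lower at 7 h. Of all genes 35.1% were higher and 33.7% lower, so these counts are not above those of all genes. Trp53inp1 was 2.47, Btg2 1.87 and Bax 0.43 higher at 7 h, while Cdkn1a was at -1.57, Bbc3 at -0.39 and Ccng1 at -0.28. Bbc3 did not pass without KCl 2 h replicate 1 (-0.24) or either KCl 7 h library (-0.43 without replicate 1, -0.36 without replicate 2).

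For footprints under H2O2 7 members differed, with 4.34 for Ccng1, 3.95 for Trp53inp1, 3.85 for Mdm2, 3.69 for Cdkn1a, 2.93 for Phlda3, 2.55 for Pmaip1 and 1.59 for Sesn1. Among all genes 18.7% had more footprints at 7 h by this test. Sesn1 did not pass without H2O2 2 h replicate 2 (1.06) or H2O2 7 h replicate 2 (1.496). What sets the members apart in time was not tested.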

How the results depend on the processing

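All values are counts of members called unless said otherwise. Most named calls held in direction and side of the threshold; 1 of them reversed, Mdm2 at 42 °C against 44 °C, which was -0.070 on log2(TPM + 1) values. The cause was not tested.

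With an added minimum of 1 for the absolute log2 fold change, which by construction removes small changes, 0 members were higher and 3 lower at 42 °C against control and against 44 °C, and 0 were called at 44 °C. It left 0 lower at 2 h of H2O2, 5 higher for H2O2 against KCl at 2 h, 3 lower at 2 h of KCl, 1 lower between the KCl times, and 3 higher and 1 lower at 7 h of KCl. Among members called higher, it removed Bbc3 and Trp53inp1 at 2 h of H2O2, and Sesn1 at 7 h. Between the H2O2 times it removed Sesn1 and Btg2. It also removed Mdm2 at 2 h of KCl, and Bax for H2O2 against KCl at 7 h and between the KCl times. With limma on log2(TPM + 1), 1 member was higher at 42 °C against 44 °C, 2 in footprints at 2 h of H2O2, 2 in footprints at 7 h of KCl, 1 in translational efficiency at 7 h of H2O2 and 1 for H2O2 against KCl at 7 h. Fitting only the groups compared left 1 member higher in footprints at 2 h of H2O2. The all-gene count there, in either direction, fell from 201 of 10545 genes tested to 27 of 10026. DESeq2 called 2 higher in footprints at 2 h of KCl, and in translational efficiency 2 at 2 h of H2O2, 3 at 7 h (Trp53inp1 added) and 1 between the H2O2 times. In these 3 comparisons of translational efficiency it also called more of all genes in either direction. The counts were 1779 against 1220 in edgeR, 1408 against 970 and 1305 against 808. In the KCl footprints it called fewer, 575 against 723. Without a filter, 2 were higher and 1 lower in footprints at 2 h of KCl, and 1 higher in translational efficiency for H2O2 against KCl. With separate voom weights, translational efficiency had 1 member higher for H2O2 against KCl, 0 higher at 2 h of KCl, and 0 higher and 0 lower at 7 h of KCl. The adjoining full site was found in 2 members, against 5 with a half-site.

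With the replicate block 2 members were higher in footprints at 2 h of KCl and 1 in translational efficiency for H2O2 against KCl. The labels tie no replicate number to a culture or day. Deviations of same-numbered libraries correlated at -0.053 to 0.117 in RNA (13 pairs of groups). In footprints the 6 pairs among the control, H2O2 7 h and both KCl groups were at 0.198 to 0.417, and the 4 pairs with H2O2 2 h at -0.384 to -0.046, so replicates there share structure that the reported fits do not model.

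Leaving out 1 library at a time gave 0 to 4 members higher in footprints at 2 h of H2O2, 7 to 10 at 7 h, 6 to 7 between the times, 8 to 9 against KCl, and 0 to 1 higher at 2 h and 0 to 2 lower at 7 h of KCl. In translational efficiency it gave 0 to 2 higher and 0 to 2 lower at 2 h of H2O2, 1 to 2 higher at 7 h, 0 to 2 between the times, 0 to 2 against KCl, 0 to 2 at 2 h of KCl, and 0 to 1 higher and 0 to 1 lower at 7 h of KCl. RNA counts moved by at most 1.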

Other observations

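Cdkn2a, the locus of the Mdm2 inhibitor ARF and of the kinase inhibitor p16, is commonly described as deleted in NIH3T3 lines. In these libraries its RNA was at 713 to 1371 TPM and its footprints were at 937 to 2256 TPM. Its RNA fell by 0.33 on the log2 scale (SE 0.08) after 7 h of H2O2 and by 0.44 (SE 0.05) at 44 °C. The tables give a value per gene, so the transcripts of this locus cannot be told apart.

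Among all 6399 pairs of neighbouring genes, Bax and Ftl1 was the 1 pair with read-in called in all 12 stress libraries and in at most 1 control library. This was noticed after the values were seen.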
